A study of Mus musculus with 2 samples.

Results

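The 9 genes described here were read across 2 total RNA libraries from mouse adrenal gland. They are Alas1, Alas2, Alad, Uros, Urod, Cpox, Ppox and Fech, which make heme, and Hmox1, which breaks it down. They were taken by gene symbol, and all 9 were found among the 55536 genes of the deposited table. They were chosen by a rule that used their TPM, their expected counts, the ratio of these between the libraries and the values of each transcript, so all of these are given as description and no test is made of them. Replicate 1 and replicate 2 formed the study's 1 group: whole adrenal gland of male mice of strain B6CASTF1/J, a hybrid of C57BL/6J and CAST/EiJ, at age 36 days, with no treatment in the labels. Each library was made from 300 ng of total RNA with a directional kit after reduction of ribosomal RNA and the addition of ERCC spike-ins, synthetic RNAs of known amount. The biosample labels name different males for the replicates, while the library labels name the same male and both carry 1 donor identifier, so the spread between the replicates may be technical.

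Heme is an iron-bearing ring that serves as the working group of cytochromes, catalase and the P450 enzymes, among them those that make steroids in the adrenal cortex. Its synthesis opens in the mitochondrion, where an aminolevulinate synthase joins glycine and succinyl-CoA, runs through the cytosol, and closes in the mitochondrion, where iron is inserted. ALAS1 is the synthase of most tissues and its rate-limiting step, which heme itself holds down, whereas ALAS2 is the form of developing red cells. Heme oxygenases open the ring and release iron, carbon monoxide and biliverdin.

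Replicate 1 had 35813366 estimated read counts in its gene table and replicate 2 had 30628771, with spike-ins at 0.843% and 1.5%. TPM, the deposited measure of level, corrects for the length of a gene and is scaled to the same total over all entries of a file. Nuclear protein-coding genes held 31.0% of it in replicate 1 and 23.2% in replicate 2, so a coding gene at the same share of coding RNA was listed lower in replicate 2. Ratios between the libraries were therefore taken from counts scaled by TMM, a method that centres the bulk of genes on no difference, and are given as log2 of replicate 2 over replicate 1. Their 95% intervals are exact binomial intervals on the 2 counts. They cover counting error only, with each read taken as independent, and they compare 2 libraries, not conditions. The labels name no molecular identifiers for the reads, so copied reads could not be set apart. Markers of the adrenal cortex were plentiful (11 of 11 at 1 TPM or more in both libraries, summed level 17928 TPM in replicate 1 and 9694 TPM in replicate 2). Those of chromaffin cells, the catecholamine cells of the medulla, were too (8 of 8, 1880 and 2079 TPM). Markers of the pancreas set replicate 2 apart, the 6 genes (Ctrb1, Cela2a and Pnlip foremost) summing to 0.210 TPM in replicate 1 and 6606 TPM in replicate 2. The 6 liver markers summed to 13.6 TPM and 117 TPM, 7 fat markers to 2086 and 2028 TPM, and 5 endothelial markers to 181 and 142 TPM.

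All 9 heme genes stood at 1 TPM or more in both libraries, as did 52.4% of nuclear protein-coding genes. Alas1 was the highest of them in each library and in each of the quantifications, and it was also the one that differed most between the libraries. The count of heme genes at 2-fold or more was 1 of 9, where 6.83% of 14780 genes reached it in either direction. These are the genes averaging 1 CPM or more, CPM being a gene's count as parts of its library's total. A 1.5-fold threshold added Alas2, for 2 of 9 against 17.3% of all genes. Scaling to the spike-ins in place of TMM put 5 of 9 at 2-fold or more, where it put 37.3% of all genes. The median log2 ratio of the 9 was -0.14, against 0.01 over all genes tested. Of the 9 genes 8 lay below 0, where 48.9% of all genes did, but the sign of a ratio near 0 follows the scaling: the count was 9 with total gene counts or with TMM over all genes, and 2 with the median of the cortex markers set to no difference, which carries the median of all genes to 0.49. The choice of members used this contrast, so these counts are a description.

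**Figure D1:**
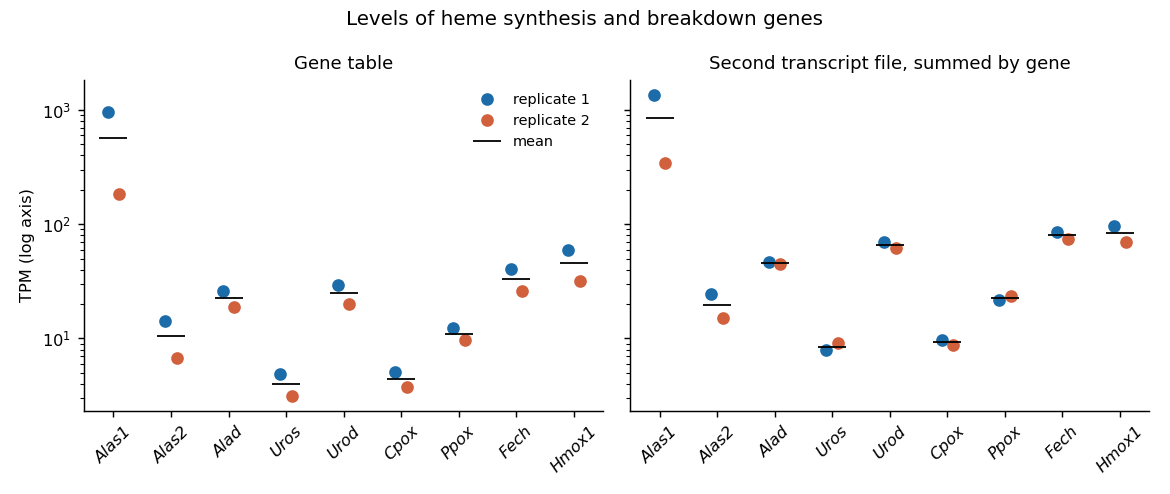
TPM on a log axis for each of the 9 heme genes, in the gene table (left) and in the second transcript file summed by gene (right); points are the replicates and the black bars their means. Alas1 lies above the other 8 genes in both libraries and both panels, at 952 and 184 TPM in the gene table, while Uros and Cpox are at the bottom.

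Alas1 (ENSMUSG00000032786.16, minus strand, mm10 chr9:106233455-106248654) had 34955 counts and 952 TPM in replicate 1. In replicate 2 it had 7360 counts and 184 TPM, a mean of 568 ± 543 TPM (SD, n = 2). It thus ranked 18 among nuclear protein-coding genes in the first library and 160 in the second. After scaling it was 3.89-fold higher in replicate 1 (95% interval 3.79 to 3.99), a log2 ratio of -1.96. Of the 14780 genes tested, 56 (0.379%) had a ratio that low or lower, Alas1 among them. The direction was the same in each of the 12 ways of scaling and counting that were tried, between -2.85 and -1.48. In the second transcript file Alas1 stood at 1358 and 345 TPM, and when TPM was rescaled over nuclear protein-coding genes alone, at 3065 and 793.

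Set against other genes of the same library, which needs no scaling, Alas1 again differed. Its TPM was 7.17 times the sum of the 7 other synthesis genes in replicate 1 and 2.08 times in replicate 2. By counts it was 4.84 and 1.40 times, and by TPM of the second transcript file 5.10 and 1.46 times. Alas1 made up 87.8% of the TPM of the 8 synthesis genes in replicate 1 and 67.5% in replicate 2, and 83.6% and 59.3% in the second file. Against Cyp11a1, the P450 that cuts the cholesterol side chain in the first step of steroid synthesis, its TPM ratio in the gene table was 0.384 and 0.139. Against Nr5a1, the transcription factor SF-1 that defines steroid-making cells, the ratio was 5.95 and 3.51. The gap between the libraries was thus smaller beside Nr5a1, which was itself 2.27-fold higher in replicate 1, than beside Cyp11a1, which was 1.40-fold higher.

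Genes of the cortex lay on the same side as Alas1. The 11 cortex markers were all below 0 with a median of -0.48, and 1 of them, Nr5a1, was lower in replicate 2 by 2-fold or more, where 1.75% of all genes were. Their most abundant members were the cholesterol carrier gene Star (5580 and 2793 TPM, log2 -0.62), Hsd3b1 (3155 and 2027 TPM, -0.21) and Cyp11a1 (2477 and 1322 TPM, -0.48). Most of the 5 heme-binding P450 genes of steroid synthesis are also among these 11 markers, with Cyp21a1 at 1814 and 1043 TPM and Cyp11b1 at 1434 and 890 TPM. The median of the 5 was the same -0.48, because Cyp11a1 is the middle gene of both lists. Alas1, at -1.96, lay more than 1 log2 unit below that value. Markers of chromaffin cells, and most of those of fat, lay on the opposite side. The 8 chromaffin markers were all above 0 with a median of 0.46, led by Chgb (484 and 717 TPM, log2 0.99), Chga (457 and 486 TPM, 0.52) and Npy (240 and 213 TPM, 0.25). The 7 fat markers had a median of 0.37, with 5 above 0 and 2 below. Of these 7, 2 were higher in replicate 2 by 2-fold or more, where 5.09% of all genes were. Not all other cell types lay opposite to the cortex. The endothelial markers had a median of -0.08 with 4 of 5 below 0, and the macrophage markers a median of -0.30. Fewer cortex cells and less RNA per cortex cell cannot be told apart in bulk tissue.

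The immediate early genes, which respond to stimuli within minutes, were lower in replicate 2 in 10 of 10, and 8 of 10 were so by 2-fold or more, where 1.75% of all genes were. The list as a whole came to 550 TPM in the first library and 72.3 TPM in the second. Nr4a1, an orphan nuclear receptor, led with 350 and 4.09 TPM (log2 -6.13), followed by Jun (93.2 and 43.5 TPM, -0.68) and Nr4a3 (26.5 and 5.98 TPM, -1.85). Heat shock genes had a median of -1.20, with 4 of 8 at 2-fold or more lower in replicate 2 and a summed level of 1679 and 814 TPM. Their 3 most abundant members did not share one direction: Hspa8 stood at 986 and 421 TPM (log2 -0.88), Hsp90aa1 at 275 and 191 TPM (0.00) and Hspb1 at 99.7 and 99.8 TPM (0.43). The part of the cortex, chromaffin, fat, immediate early and heat shock genes in the Alas1 difference was not tested.

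**Figure D2:**
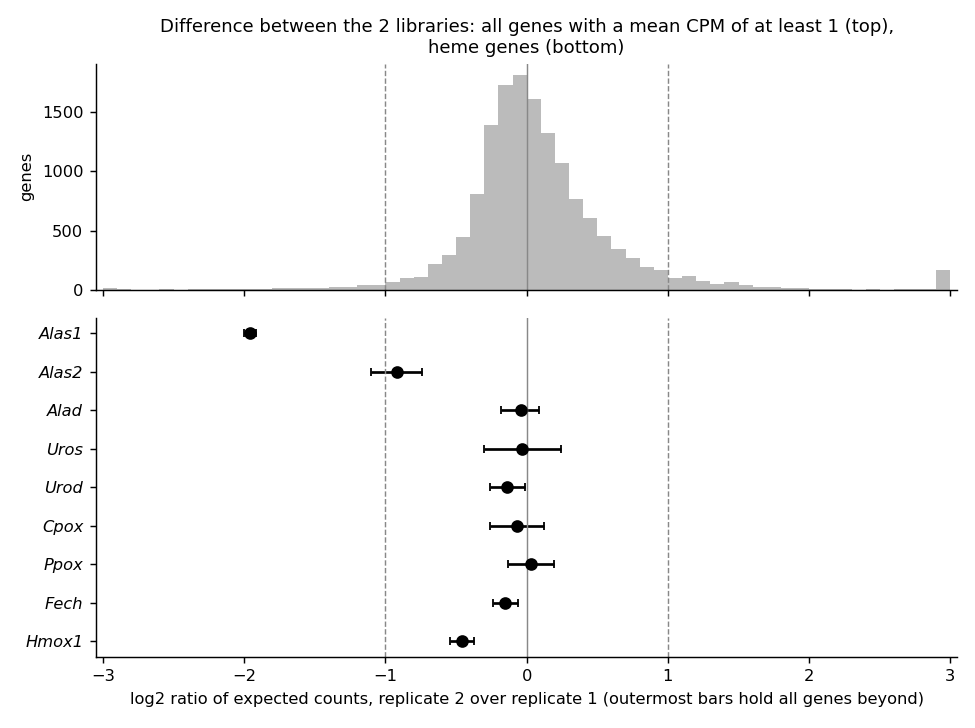
Log2 ratio of expected counts, replicate 2 over replicate 1: a histogram of the 14780 genes averaging 1 CPM or more (top, with genes beyond the axis in the outermost bars) and the 9 heme genes with 95% counting intervals (bottom); dashed lines mark 2-fold. Alas1 lies at -1.96 and Alas2 at -0.92, while the 6 enzymes from Alad to Fech lie between -0.15 and 0.03, inside the bulk of all genes.

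GENCODE M21 holds 13 transcripts of Alas1, and most of its reads were not assigned to a full-length coding one. Alas1-206, annotated as a processed transcript without a coding region, took 24649 of the counts in replicate 1 and 5067 in replicate 2, or 70.5% and 68.8% of the gene. Of its 1905 bases 1825 lie also in the coding transcript Alas1-207, and 80 lie in no other transcript. Alas1-211, an incomplete coding model of 460 bases that all lie within Alas1-207, took 17.3% and 17.6% of the counts. Because it is short, it carried 49.7% and 50.2% of the gene's TPM. The other Alas1 transcripts summed to 479 and 91.7 TPM, still above each of the other heme genes. The reads of Alas1-211 were left out of this sum and not assigned to another transcript.

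The models part at the junction into the exon that both share, which is shown here from GENCODE M21 transcripts with the first 15 bases of the shared exon in capitals (minus strand of chr9, mm10, shared bases chr9:106243381-106243395). The lower-case bases are the ends of the preceding exons, chr9:106243555-106243569 in Alas1-206 and chr9:106246759-106246773 in Alas1-211.
Alas1-206 exon 1 to exon 2: gaaagccactgtcagAAGAGAAAACTGCCA
Alas1-211 exon 3 to exon 4: ctccagccaatgagaAAGAGAAAACTGCCA
The full-length coding transcript Alas1-201 differs from Alas1-206 at another junction, where its exon 8 begins 3 bases further on. Capitals again mark the bases after the junction.
Alas1-206 exon 6 to exon 7: tccattcaatggatgGAGCAGTGTGCCCAC
Alas1-201 exon 7 to exon 8: tccattcaatggatgCAGTGTGCCCACTGG
Alas1-201 was given 563 counts in replicate 1, with an SD of 231 from the authors' own quantification, and 0 in replicate 2, with an SD of 75.9. Of its 2129 bases 1822 lie also in Alas1-206, and none lies in Alas1-201 alone.

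**Figure D3:**
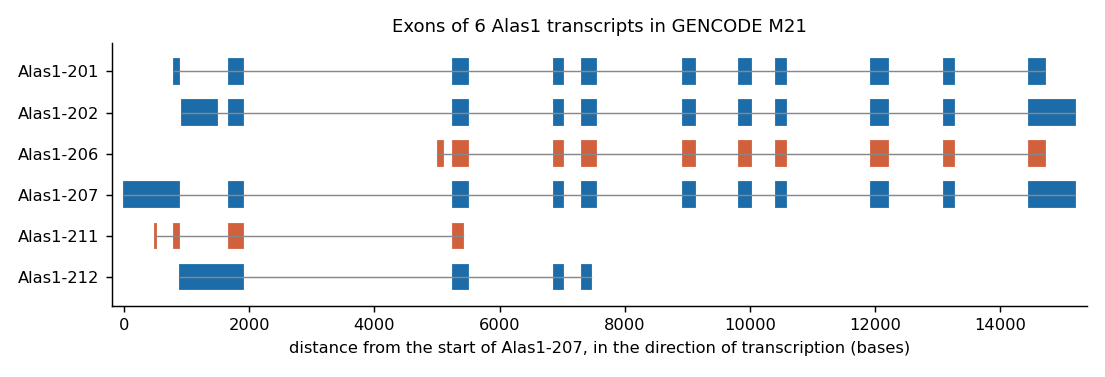
Exons (boxes) and introns (lines) of 6 Alas1 transcripts by distance in bases from the start of Alas1-207. The 2 transcripts with most counts in the first transcript file, in orange, are Alas1-206, which begins downstream of the coding transcripts' first exons, and Alas1-211, which covers those first exons and ends in the exon the models share.

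The second transcript file divided Alas1 otherwise: Alas1-206 held 57.9% and 56.9% of counts, the coding Alas1-207 19.8% and 19.3%, and Alas1-212, another incomplete coding model, 11% and 11.4%. In the first file Alas1-207 had held 0.613% and 0.638%. The difference between the libraries was shared by nearly all of the transcripts. Of 12 transcripts with at least 50 counts in the 2 libraries together, 11 were lower in replicate 2 by 2-fold or more in each file. The exception was Alas1-205, a nonsense-mediated decay model, with 104 and 164 counts in the first file (log2 0.94) and 31 and 52 in the second (1.00).

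Alas2 (ENSMUSG00000025270.13, plus strand, chrX:150547375-150570638), the red cell synthase, had 840 counts and 14.3 TPM in replicate 1 and 363 counts and 6.76 TPM in replicate 2. It was the second most different of the 9, 1.89-fold higher in replicate 1 (95% interval 1.67 to 2.15, log2 -0.92), just under the 2-fold threshold. The direction held in 12 of 12 settings. Its TPM was far under that of Alas1, which was 66.7 times higher in replicate 1 and 27.3 times higher in replicate 2.

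The Alas2 reads were not all on coding transcripts. Alas2-204, a noncoding model of 569 bases at the 3' end, had 39 and 45 counts and carried 16.3% and 36.7% of the gene's TPM. The coding Alas2-201 and Alas2-202 together had 801 and 318 counts in the first file, 2.06-fold more in replicate 1 (95% interval 1.81 to 2.36, log2 -1.05). This is just past the 2-fold threshold, which the interval takes in, and the interval leaves out error in assigning reads to transcripts. In the second file Alas2-201 had 648 and 338 counts and Alas2-202 had 158 and 2, and the ratio of their sum was not taken. The whole 23264-base span of Alas2, introns included, overlaps Apex2, a DNA repair gene on the opposite strand that had 388 and 461 counts. Of the 9 heme genes 5 overlapped another gene, Uros and Ppox among them, and 0 did so on the same strand. Whether strand was used in counting is not given in the sources used here.

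Alas2 stood beside the globins of blood. Hba-a1 had 1139 and 521 TPM (log2 -0.67), Hbb-bs 986 and 468 TPM (-0.65), Hba-a2 892 and 303 TPM (-1.13) and Hbb-bt 142 and 59.6 TPM (-0.83). The ratio of the 4 globins' summed TPM to Alas2 was 221 in replicate 1 and 200 in replicate 2, closer than either measure was between the libraries. The erythroid list as a whole summed to 3161 TPM and 1352 TPM. Of its 12 matched genes 6 averaged 1 CPM or more, all of them below 0, and their median was -0.66. Genes of red cell precursors were at or near nothing, with Rhag at 0 counts in both libraries, Klf1 at 3 and 0, and Gata1 at 5 and 5. The part of blood RNA in the Alas2 difference was not tested.

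The 3 cytosolic enzymes were nearly level between the libraries. Alad (ENSMUSG00000028393.10, chr4:62509169-62519918), which joins 2 aminolevulinate molecules into porphobilinogen, had 1048 and 833 counts and 26.2 and 18.9 TPM (22.5 ± 5.22, SD, n = 2). Uros (ENSMUSG00000030979.13, chr7:133686243-133710072), which closes the ring into uroporphyrinogen III, was the lowest of the 9, with 258 and 207 counts and 4.87 and 3.14 TPM. Urod (ENSMUSG00000028684.14, chr4:116989965-116994413), which trims the ring's side chains, had 1269 and 946 counts and 29.6 and 20.2 TPM. Their TPM was lower in replicate 2 throughout, but their scaled log2 ratios were -0.04, -0.03 and -0.14. The intervals of Alad and Uros took in 0, and that of Urod ended at -0.01.

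The mitochondrial enzymes gave the same picture. Cpox (ENSMUSG00000022742.6, chr16:58670292-58717636), which oxidizes coproporphyrinogen, had 531 and 414 counts and 5.13 and 3.76 TPM (log2 -0.07). Ppox (ENSMUSG00000062729.11, chr1:171275990-171281186), which makes protoporphyrin, had 745 and 623 counts and 12.3 and 9.78 TPM. With a log2 ratio of 0.03 it was the one heme gene above 0 under TMM, though it lay below 0 in 4 of the 12 settings, at -0.02 with total gene counts and -0.03 with TMM over all genes. Fech (ENSMUSG00000024588.9, chromosome 18), which inserts the iron, was the highest of the 6 enzymes downstream of the synthases. It had 2527 and 1865 counts and 40.4 and 26 TPM, with a log2 ratio of -0.15 (95% interval -0.24 to -0.06).

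The order of levels was the same in both libraries but for 1 exchange. In replicate 1 it ran Alas1, Hmox1, Fech, Urod, Alad, Alas2, Ppox, Cpox and Uros, and in replicate 2 Ppox stood before Alas2. Neighbours in this order were less well separated in the deposited TPM than in TPM rescaled over nuclear protein-coding genes, which takes out the shift common to coding genes. In the deposited TPM Urod at 24.9 ± 6.59 and Alad at 22.5 ± 5.22 (SD, n = 2) lay within one another's SD. So did Ppox at 11 ± 1.79 and Alas2 at 10.5 ± 5.31, and Cpox at 4.45 ± 0.969 and Uros at 4.00 ± 1.22. Fech, at 33.2 ± 10.2, lay above the SD range of Urod and inside that of Hmox1, at 45.7 ± 19.2. In the rescaled TPM Hmox1 stood at 165 ± 37.2, Fech at 121 ± 12.9, Urod at 91.2 ± 5.73 and Alad at 82.8 ± 2.38. On this scale the ranges of Fech, Urod and Alad did not overlap, and those of Hmox1 and Fech overlapped only at their edges. Ppox at 40.9 ± 1.72 still lay inside the range of Alas2, at 37.5 ± 11.9, while Cpox at 16.4 ± 0.243 and Uros at 14.6 ± 1.54 came apart narrowly. Alas1 was above Hmox1 in each library on both scales. In the second transcript file Fech stood above Hmox1 in replicate 2, at 74.0 and 70.5 TPM, and Uros above Cpox, at 9.08 and 8.75 TPM.

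The division of a gene's TPM among its transcripts differed between the files by more than between the libraries for the leading transcripts of Alad and Uros, and for several transcripts of Fech and Urod. The coding transcripts Alad-201 and Alad-202 share 1182 bases and differ by 24 and 65 bases. Alad-201 held 93.3% and 87.6% of the gene's TPM in the first file and 59.9% and 41.0% in the second, where Alad-202 held 35.7% and 53.7%. The noncoding Alad-203 was alike in both, at 4.04% and 4.93% and then 4.43% and 5.32%. In the second file the coding transcript Fech-201 held 3.12% of TPM in replicate 1 and 35.1% in replicate 2, and the noncoding Fech-212 held 41.1% and 4.78%. The first file gave Fech-201 49.2% and 44.9% and Fech-212 1.01% and 0%, so that for this pair replicate 1 of the second file stood apart. Other Fech transcripts differed between the files in both libraries. The coding Fech-213 held 20.8% and 23.7% in the first and 8.76% and 7.91% in the second, and the nonsense-mediated decay model Fech-215 held 4.28% and 2.69% against 30.3% and 31.7%. Of the remaining ones that reached 5% of TPM somewhere, Fech-207, Fech-208, Fech-209, Fech-211 and Fech-214, none held more than 10.1%. Fech-201 and Fech-212 have 1896 bases in common. The ratio of the whole gene changed little with the file, at -0.15 in the gene table and -0.12 in the second file.

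**Figure D4:**
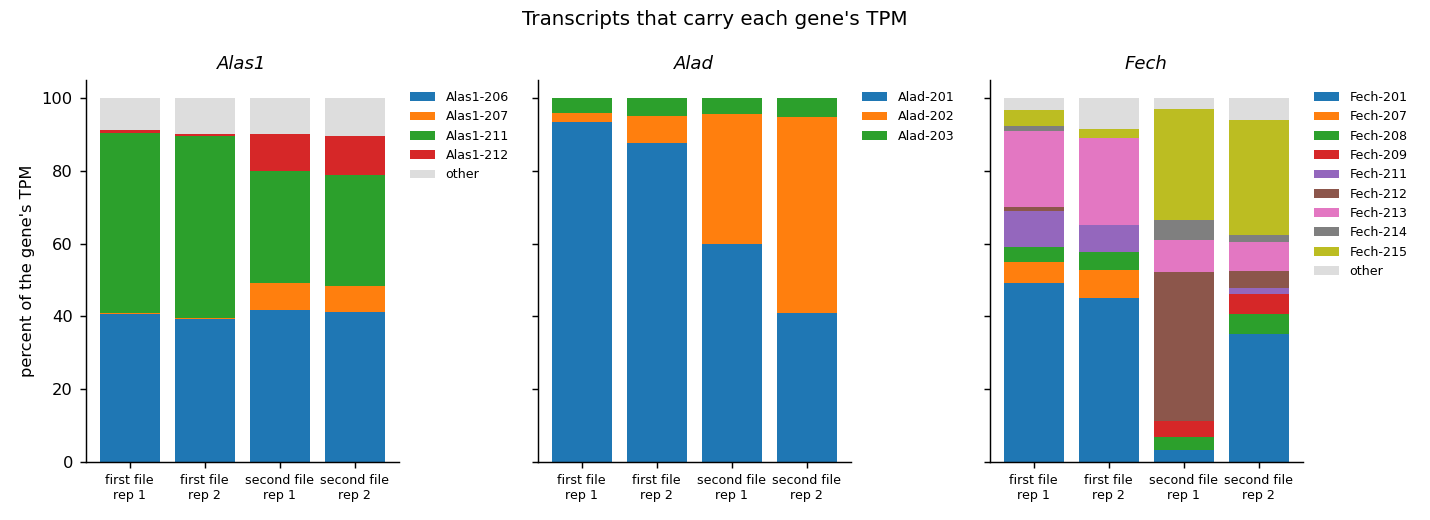
Percent of each gene's TPM held by the transcripts of Alas1, Alad and Fech, in both transcript files and both replicates; transcripts under 5% in all 4 bars are pooled as other. The Alas1 bars are alike between replicates, the Alad bars differ between files, and Fech-212 holds 41.1% in 1 bar, replicate 1 of the second file.

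Uros, the gene with the fewest counts, was divided most differently. Its coding transcript Uros-203 held 45.8% and 39% of TPM in the first file and 0.61% and 7.40% in the second. Uros-201, also coding, held 0% and 8.25% in the first and 60.0% and 36.5% in the second. The coding Uros-202 stayed between 7.60% and 11%, and Uros-204 and Uros-209 passed 5% in 1 library where the other library of the same file was at 0%. For Alas2 the coding Alas2-201 led in each file, with 61.1% and 51% and then 62.8% and 64.1%, while Alas2-202 held 22.6% and 12.3% and then 16.8% and 0.326%.

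Transcripts with a retained intron, which do not give the full enzyme, carried a large part of some genes. In Ppox they held 49.8% of TPM in replicate 1 and 57.0% in replicate 2, and 57.7% and 66.3% in the second file. The largest of these in the first file was Ppox-205, with 20.6% and 29.2%, before Ppox-207, Ppox-202 and Ppox-206. The coding Ppox-201 held 50.2% and 40.8%, and 42.3% and 33.6% in the second file. In Uros 1 such transcript, Uros-206, held 27.1% and 41.0%, and the second file gave it 27.9% and 32%. For both genes the share was higher in replicate 2 in each file. In Urod the files differed, with 18.4% and 22.3% in the first and 53.5% and 52.2% in the second. There Urod-205 alone took 36.8% and 22.8%, against 0.981% and 1.43% in the first, while Urod-202 and Urod-209 stayed at 17.1% or less. The coding Urod-201 accordingly held 80.1% and 76.8% in the first file and 46.5% and 47.8% in the second. Cpox-201, the one coding transcript of Cpox, held 92.8% and 88.8% of its gene beside the retained-intron models Cpox-204 and Cpox-205, and Hmox1-201 held 96.8% and 96.9%.

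Hmox1 (ENSMUSG00000005413.8, plus strand, chr8:75093621-75100589), the inducible heme oxygenase, was second to Alas1 in level in the gene table. It had 3024 counts and 59.3 TPM in replicate 1 and 1803 counts and 32.1 TPM in replicate 2, a mean of 45.7 ± 19.2 TPM (SD, n = 2). After scaling it was 1.37-fold higher in replicate 1, a log2 ratio of -0.46 (95% interval -0.54 to -0.37). Of all genes tested 7.96% lay that low or lower. The ratio was below 0 in 11 of 12 settings and 0.02 with the median of the cortex markers set to no difference.

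Macrophages take up old red cells and are a known site of Hmox1, and the gene is also a target of NRF2, the factor of the oxidative stress response. The 9 of 10 macrophage markers that averaged 1 CPM or more were all below 0, their median was -0.30, and the list summed to 153 and 90.9 TPM. Its leading genes were the lysozyme Lyz2 (55.5 and 29.9 TPM, log2 -0.47) and the complement genes C1qa (22.0 and 15.6 TPM, -0.07) and C1qb (23.3 and 14.1 TPM, -0.30). The TPM of Hmox1 was 12.7 times that of Cd163, the macrophage receptor for hemoglobin, in each library. Cd163 was picked after its values were seen, and the log2 ratios of the 9 markers ran from -0.47 to -0.04, so not all of them kept a constant ratio to Hmox1. The 11 NRF2 targets also had a median of -0.30, with 9 below 0, where 48.9% of all genes were, and a sum of 2349 and 1520 TPM. Among them 1 was lower in replicate 2 by 2-fold or more, where 1.75% of all genes were, and this one, Slc7a11, rests on 69 and 26 counts. Their leading genes were the ferritin heavy chain Fth1 (988 and 757 TPM, 0.04), malic enzyme Me1 (617 and 320 TPM, -0.56) and the ferritin light chain Ftl1 (437 and 284 TPM, -0.19). The part of either list in the Hmox1 difference was not tested.

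The rest of heme breakdown lay on the other side or near 0. Hmox2, the constitutive oxygenase, had 17.3 and 15.1 TPM and a log2 ratio of 0.29, so that the TPM ratio of Hmox1 to Hmox2 was 3.43 in replicate 1 and 2.13 in replicate 2. The biliverdin reductases, which turn the product into bilirubin, differed little, with Blvrb at 12.8 and 11.4 TPM (0.27) and Blvra at 7.34 and 5.17 TPM (-0.12).

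A wider view of the pathway came from 35 other genes of heme breakdown, transport, supply and regulation. Under TMM none was 2-fold or more lower in replicate 2, where 1.75% of all genes were, and 1 of 35 was higher, where 5.09% of all genes were. With spike-in scaling 9 of 35 were lower and 1 was higher, where 37.3% of all genes were past 2-fold in either direction. That scaling put the median of all genes at -0.88. In the main scaling the median log2 ratio of the 35 was 0.03, with 17 below 0 and 18 above. The exception was Hpx, hemopexin, the plasma protein that binds free heme and is made chiefly in liver. It had 23 counts in replicate 1 and 314 in replicate 2, 0.470 and 5.78 TPM, a log2 ratio of 4.03 (95% interval 3.45 to 4.74). The 6 liver markers were all higher in replicate 2 by 2-fold or more, with a median of 3.53. Alb led them with 7.24 and 51.4 TPM, before Apoa2 at 1.93 and 25.9 TPM and Apoa1 at 1.94 and 19.9 TPM. The part of liver RNA in the Hpx difference was not tested.

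Genes of the mitochondrial side were abundant and close to level. Tspo, the outer membrane protein that binds porphyrins and cholesterol, had 185 and 120 TPM (log2 -0.19). Sucla2, a subunit of the ligase that handles succinyl-CoA, had 114 and 99.0 TPM (0.22), and Tmem14c, a porphyrin carrier, 45 and 35.8 TPM (0.10). The TPM of Fech, whose log2 ratio of -0.15 was close to that of Tspo, was 0.218 and 0.216 of that of Tspo. Against Cyp11a1 it was 0.0163 and 0.0197, so the ratio of Fech to another gene was not constant throughout. Among chaperones and carriers, the heme-binding Pgrmc1 had 134 and 83.2 TPM (-0.26), the haptoglobin gene Hp 76.2 and 72.9 TPM (0.44) and the heme carrier Slc48a1 39.1 and 28.2 TPM (-0.11). Cox10 and Cox15, which convert heme for cytochrome oxidase, and Hccs, which attaches it to cytochrome c, had log2 ratios of 0.06, 0.00 and -0.11.

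Of 8 regulators none reached 2-fold, where 6.83% of all genes did in either direction. Nfe2l2, which encodes NRF2, came nearest, with 39.3 TPM in replicate 1 and 17.1 TPM in replicate 2, a 1.72-fold difference (log2 -0.78). Nr1d1, the heme-binding clock repressor REV-ERB alpha, had 35.2 and 31.0 TPM (0.26). Aco1, which becomes an iron sensor when it loses its cluster, had 34.0 and 27.3 TPM (0.03).

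**Figure D5:**
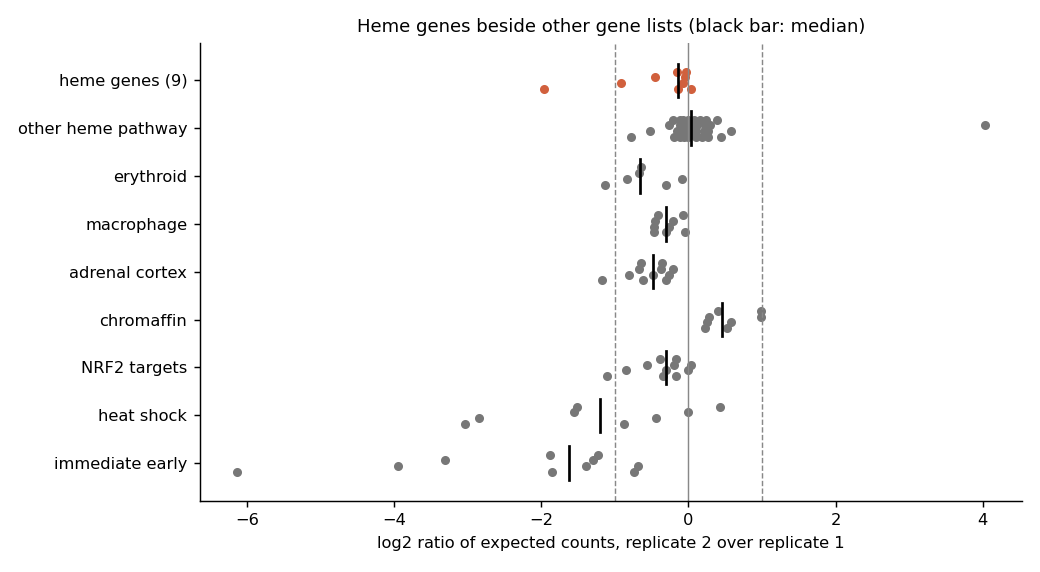
Log2 ratio of expected counts, replicate 2 over replicate 1, for genes averaging 1 CPM or more in 9 lists; each point is a gene, black bars are medians and dashed lines mark 2-fold. The heme genes and the other pathway genes centre near 0 with Alas1 and Hpx far out, while the heat shock and immediate early lists reach to -3.04 and -6.13.

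RefSeq promoter windows on GRCm38.p6 were matched for 7 of the 9 genes, with 10 windows in all. Hmox1 and Fech had no window, so their promoters were not searched. In the windows found, the 250 bases before each start were searched on both strands for short motifs. Matches in Alas1, Alas2, Alad and Urod are shown with the matched letters in capitals, each read 5' to 3' on its gene's strand.
Alas1 (chr9:106247906-106247935, minus strand): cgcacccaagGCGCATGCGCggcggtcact
Alas2 (chrX:150547319-150547348, plus strand): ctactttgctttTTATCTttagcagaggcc
Alad (chr4:62520151-62520180, minus strand): gctccgaatgccCACGTGgaccccctcggg
Urod (chr4:116994445-116994474, minus strand): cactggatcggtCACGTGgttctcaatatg
The Alas1 capitals are overlapping matches on both strands to GCGCATGC, the core of the site of nuclear respiratory factor NRF1, which is found in 2.26% of the 32851 windows of that length. The window of Alas2 held AGATAA on the opposite strand, 86 bases before the start, the core that GATA factors bind and that 9.99% of windows have. Alad, Uros and Urod held the E-box CACGTG, found in 6.02% of windows. These shares are of windows, while a gene may have several. No match in the 7 genes' windows was found for 6 other motifs: the cyclic AMP response element TGACGTCA (in 1.55% of windows), the NR4A site AAAGGTCA (1.34%), the SF-1 site CAAGGTCA (1.33%), the heat shock element core GAANNTTC (6.69%), the antioxidant response element TGACNNNGC (10.2%) and the CACCC box CCACACCC (3.20%). A match describes letters in a window, and none of the files measured binding there.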

How the data were processed

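The deposited files gave, for each library, expected counts and TPM per gene and per transcript, the authors' SD of each transcript's expected count (another unit, in reads), and a second transcript file with estimated counts and TPM. Per the labels and the notes deposited with the files, they rest on mm10 and GENCODE M21, and each library was quantified alone. The sources used here do not name the aligner, the quantifier or a version. Reads of the CAST/EiJ allele were counted on a C57BL/6J reference, and the effect of this was not tested. Totals were 35813366 and 30628771 expected counts, of which entries that name no gene (spike-ins and tRNA) took 0.843% and 1.5% and stayed out of library sizes.

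From these, counts were scaled by TMM (edgeR 4.0.16, R 4.3.3) over genes averaging 1 CPM or more, and log2 ratios were taken with 0.5 added to each scaled count. Nothing was rounded, and all 9 genes had whole counts within 0.01. With 1 group of 2 libraries no test between groups was possible, no p-value is given, and a difference was counted at 2-fold. Levels are means with SD over both libraries. The ratio calculation was tested on simulated data.

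The genes named were all 9 heme genes, of 35 other pathway genes those at 2-fold and the 3 highest of each role, of each marker list up to 3 highest and any at 0, and transcripts with at least 5% of a gene's TPM. The sums of Alas2 coding transcripts, and Alas1 without Alas1-211, were chosen after their values were seen, as were Alas1-201 and Alas1-205, Nr5a1, Cd163, Hbb-bt, Klf1, Gata1, Slc7a11 and Apex2. The members and lists were chosen with earlier results of these data known. Ahsp was not matched and 1 enzyme of the pathway is not reported here. Promoter windows came from RefSeq and junctions from GENCODE transcripts. Alternatives were DESeq2 1.42.0 size factors, total counts, spike-ins, other filters and added counts, the second file, coding genes alone and a 1.5-fold threshold.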

Additional observations from a re-analysis of the deposited data

How the results depend on the processing

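With DESeq2 size factors, total gene counts, no filter, a filter at 5 CPM, the other transcript file, coding genes only or 1 added to counts, 1 heme gene stayed at 2-fold, and it was Alas1. Scaling to the spike-ins moved all ratios by -0.89: 5 of 9 heme genes then reached 2-fold, where 37.3% of all genes did, the heme median was -1.03 and that of the 35 other pathway genes -0.86, with 9 of them lower by 2-fold. A 1.5-fold threshold gave 2 heme genes, Alas1 and Alas2. Of the alternatives chosen after seeing the data, TMM over all genes and the removal of genes over 5 log2 units above 0 left 1 heme gene at 2-fold, the former with 9 of 9 below 0 and Ppox at -0.03; setting the median of the cortex markers to no difference put the heme median at 0.34, that of the other pathway genes at 0.51 and that of all genes at 0.49, with Alas1 at -1.48. All 9 genes stood at 1 TPM or more in either library alone. No paired analysis was possible because the 2 libraries form 1 group. Both libraries together limit every value: a ratio of 1 library to another has no replicate, and the intervals hold counting error only. Uros, with 258 and 207 counts, is the least precise, with a 95% interval of -0.30 to 0.24. Shares among transcripts of a gene depend on the quantification, as the Fech and Alad values show.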
